A study of Mus musculus with 13 samples.

Results

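Keratins of stratified epithelium were compared between mammary tumors of TSG101-overexpressing mice and normal mammary glands. The genes were Krt5, Krt14, Krt15, Krt17, Krt6a, Krt6b, Krt16, Krt1, Krt10 and Krt79, 10 of the 15213 genes in the table. They were chosen by their symbols as keratins of basal and stratified epithelium, at a time when the difference between tumors and glands in these same libraries and the spread among the tumors were already known. The differences of the 10 genes between tumors and glands and their spread over the tumors are therefore given as a description, without p-values, and the number of them called in the fit over all genes repeats that choice and supports nothing. P-values of these genes are given for correlations between 8 named pairs alone.

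Total RNA of 10 tumors from 6 females and of glands from 3 other females was sequenced. The tumors carried the labels' genotype MtTA Teto-TSG101wt, that is, an MMTV-tTA transgene and a TetO-Tsg101-IRES-luciferase transgene on the FVB background, in which the transactivator tTA switches on full-length mouse TSG101 in the absence of doxycycline. The MMTV promoter drives tTA in a mosaic subset of luminal mammary cells, and the study describes the tumors as adenosquamous carcinomas of parous females. The glands came from FVB wild-type females, and the age and reproductive stage of the sequenced mice were not given in the sources used here. Tumors 2 and 3 came from mouse 51067, tumors 5 and 6 from mouse 51356, and tumors 8, 9 and 10 from mouse 51386, and the other tumors came from a mouse each.

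Keratins form the intermediate filaments of epithelial cells. Each filament is built from a type I and a type II chain, so that a cell needs partners of both types. In skin and in the basal layer of the mammary duct, the type II keratin KRT5 pairs with the type I keratin KRT14, and KRT15 is a further type I chain of basal cells and of the hair follicle bulge. Cells that leave the basal layer of the epidermis switch to KRT1 and KRT10. KRT6A, KRT6B, KRT16 and KRT17 are made in hair follicles and, in the interfollicular epidermis, mainly after wounding or in hyperproliferation. KRT79 marks the upper hair follicle and the ducts of sebaceous glands. Luminal mammary cells carry the simple keratins KRT8, KRT18 and KRT19.

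All 10 genes lie on the minus strand of GRCm38.p6 (mm10), in the keratin clusters of chromosomes 11 and 15. The type II genes are on chromosome 15, with Krt6b at 101676023 to 101680293, Krt6a at 101689928 to 101694305, Krt5 at 101707069 to 101712905, Krt1 at 101845426 to 101850786 and Krt79 at 101929332 to 101940324. The type I genes are on chromosome 11, with Krt10 at 99385254 to 99397449, Krt15 at 100131759 to 100135949, Krt14 at 100203162 to 100207510, Krt16 at 100246091 to 100248902 and Krt17 at 100256215 to 100261029. Krt6a and Krt6b are near copies of each other. Over the 8 coding exons of equal length, 1426 bases in all, their reference sequences were 97.8% identical, with 32 differences and a longest identical run of 280 bases. The fourth coding exon holds the 90-base window with the most differences, 12, which is shown as an example. A read that covers any differing base can be told apart. The window lies at chr15:101692484-101692573 in Krt6a and at chr15:101678303-101678392 in Krt6b, is printed 5′ to 3′ on the coding strand from the GENCODE transcripts, and has the differing bases in capitals.
Krt6a: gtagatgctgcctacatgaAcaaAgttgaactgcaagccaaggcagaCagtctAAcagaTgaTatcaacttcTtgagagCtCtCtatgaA
Krt6b: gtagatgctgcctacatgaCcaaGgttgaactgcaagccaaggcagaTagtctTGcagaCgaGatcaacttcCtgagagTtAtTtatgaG

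The reads were 75 bases long, and 42.3% of the 75-base windows of the Krt6a transcript also occurred in a transcript of another gene. Of these 932 windows, 797 were shared with Krt6b. The share was 39.6% for Krt6b and 28.9% for Krt16, where 335 of 431 shared windows were those of the gene Gm11597. Krt14 shared 5.91% of its windows, all with Krt16, and Krt5 shared 5.18%, mostly with Krt6a. Krt15, Krt17, Krt1, Krt10 and Krt79 shared no window with any other annotated gene. How reads that fit several genes were counted is not given in the sources used here, so the levels of Krt6a, Krt6b and Krt16 are uncertain. The shares hold for single reads. The reads were paired, and the share of read pairs that fit several genes was not measured. Exons of Krt5, Krt6a, Krt6b and Krt10 also overlap annotated genes of the opposite strand, and the strand setting of the counting was not stated.

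The RefSeq promoter table held 4 of the 10 genes at this build. The 250 bases before the start of Krt5 and of Krt10 are shown because these genes stand for the basal and the suprabasal layer and hardly followed each other over the tumors (r = 0.16). Capitals mark matches, on either strand, to the TATA box letters TATAAA, to the CCAAT box, to the AP-1 letters TGANTCA or to the AP-2 letters GCCNNNGGC. The Krt5 sequence is chr15:101712906-101713155, the Krt10 sequence is chr11:99389365-99389614, and both are printed 5′ to 3′ on the minus strand. The Krt5 window lies before the RefSeq start at 101712905, which is not a GENCODE transcript start of the gene. The Krt10 window lies before the GENCODE transcript start at 99389364, inside the RefSeq span of the gene given above, which reaches further upstream.
Krt5: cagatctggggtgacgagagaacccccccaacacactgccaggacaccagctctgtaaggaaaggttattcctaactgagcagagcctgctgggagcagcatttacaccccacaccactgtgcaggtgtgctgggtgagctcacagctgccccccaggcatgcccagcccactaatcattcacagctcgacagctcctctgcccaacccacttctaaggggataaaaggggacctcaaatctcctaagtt
Krt10: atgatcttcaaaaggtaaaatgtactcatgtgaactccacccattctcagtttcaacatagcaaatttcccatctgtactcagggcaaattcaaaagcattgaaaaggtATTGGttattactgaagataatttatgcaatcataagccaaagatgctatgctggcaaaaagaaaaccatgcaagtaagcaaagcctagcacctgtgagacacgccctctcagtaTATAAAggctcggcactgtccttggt

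The Krt10 window held TATAAA, 26 to 21 bases before the start, and CCAAT on the opposite strand, 141 to 137 bases before it. TATAAA occurred in 12.4% and CCAAT in 33.8% of the 32851 promoter windows of the same length. The Krt5 window held none of the 4 motifs, and TGANTCA and GCCNNNGGC, which were found in 6.75% and 13.7% of all windows, occurred in neither. A match describes letters only. Variants of these letters were not searched, so the lack of a match does not show that an element is absent.

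The libraries held 6176269 to 16835397 reads on the listed genes in the tumors and 11672487 to 23889042 in the glands. Levels are given in normalized cpm, the read counts of the deposited table scaled to the size of the library as cpm and by a further factor for each library. A count of 3 reads, the limit that a count of 0 allows, was worth 0.141 to 0.683 normalized cpm in a tumor and 0.128 to 0.366 in a gland, for counting error only. The ribosomal RNA precursor Rn45s took 0.456% to 27.4% of the reads in tumors, most in tumor 9, and 0.296% to 4.35% in glands. Tsg101 itself ranged from 49.9 to 101 normalized cpm over the tumors and from 45.6 to 61.0 over the glands, so that the groups overlapped. Markers of other cell types moved with the groups. The summed level of 7 milk genes was 1384 to 76623 normalized cpm in tumors and 165034 to 305121 in glands, that of 10 adipocyte genes 41.6 to 562 against 4418 to 12326, and that of 6 lymphocyte genes 7.11 to 86.6 against 15.4 to 349. Among the tumors, 5 skeletal muscle genes summed to 1900 normalized cpm in tumor 4 and to 323 in tumor 10, against at most 11.6 in the others. The 3 measured sebaceous genes and the melanocyte genes Dct and Pmel were low in every library, with sums of at most 43.8 and 4.63. In bulk tissue, fewer cells of a type and less RNA per cell cannot be told apart, and the part of these cell types in the keratin values was not tested. The labels name UNMC and Novogene as sequencing sites without saying which libraries each of them made, so no batch could be assigned.

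Basal keratins were present in every gland and higher in every tumor. Krt5 was at 275 in the lowest, 402 in the median and 1221 normalized cpm in the highest tumor, and at 78.7, 126 and 33.3 in glands 1, 2 and 3. Its partner Krt14 was at 216, 356 and 1358 in the lowest, median and highest tumor, and at 122, 192 and 118 in the glands. For Krt14 the lowest tumor, tumor 9, was just above gland 2, which was the narrowest gap of the 10 genes in the plot of member values. Krt15 was at 104, 162 and 651 normalized cpm in the lowest, median and highest tumor, and at 8.18, 19.0 and 9.39 in the glands. On the scale of log2(normalized cpm + 1), the tumor mean exceeded the gland mean by 2.82 (limma SE 0.47) for Krt5, by 1.73 (SE 0.46) for Krt14 and by 3.98 (SE 0.51) for Krt15. The level of Krt15 per kilobase of transcript thus amounted to 0.0668 to 0.0986 of that of Krt14 in the glands and to 0.197 to 0.726 of it in the tumors.

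**Figure D1:**
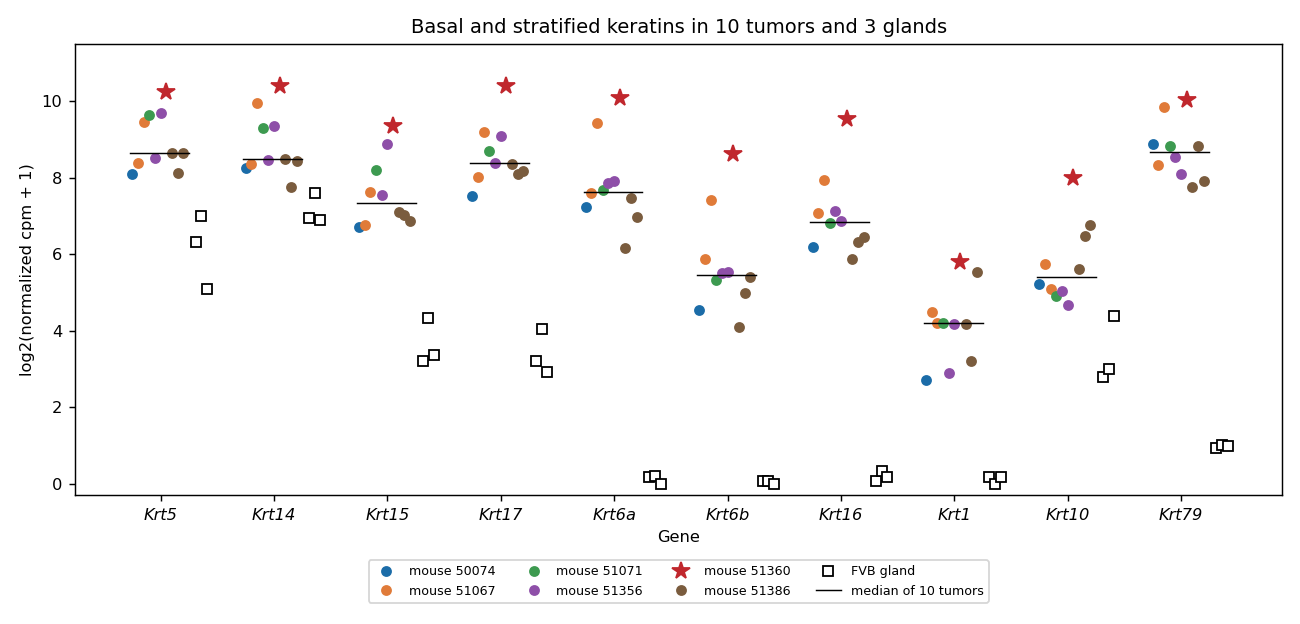
Level of each of the 10 keratins on the log2(normalized cpm + 1) scale, with a coloured point per tumor (colour, mouse of origin; star, tumor 7), an open square per FVB gland and a line at the median of the 10 tumors. For each gene all 10 tumors lie above all 3 glands, tumor 7 is the highest, and Krt6a, Krt6b, Krt16 and Krt1 are at or close to 0 in the glands.

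The keratins of wounded epidermis and of the hair follicle were near the detection limit in the glands, except for Krt17. Krt17 was at 184, 332 and 1359 normalized cpm in the lowest, median and highest tumor, and at 8.31, 15.4 and 6.58 in the glands. Its log2 difference was 5.21 (limma SE 0.46). In the glands the level of Krt17 per kilobase was 0.0610 to 0.0878 of that of Krt14, whereas in the tumors it was 0.651 to 1.40 of it, so that the levels of both genes overlapped there.

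Krt6a ranged from 70.8 normalized cpm in tumor 8 to 1089 in tumor 7, with a median of 199. In glands 1, 2 and 3, 3, 3 and 0 reads of Krt6a were found. The mean tumor level was 2689 times the level of the pooled gland reads, and 1960 times without tumor 7. The first ratio has an exact Poisson interval of 1235 to 7327 that covers the counting error of the gland reads only. Krt16, the type I partner of the KRT6 chains, was at 57.3, 114 and 745 normalized cpm in the lowest, median and highest tumor, and the glands held 1, 5 and 1 reads of it. This gives a ratio of 1302 (632 to 3238), which was 844 without tumor 7. Krt6b was at 16.1, 43.2 and 391 normalized cpm in the lowest, median and highest tumor against 1, 1 and 0 reads in the glands, a ratio of 2186 (605 to 18051), which was 1324 without tumor 7. Per kilobase, Krt6b stayed below Krt6a in every tumor, at 0.152 to 0.366 of its level.

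Among the keratins of differentiated suprabasal cells, Krt10 was clearly detected in glands and Krt1 was not. Krt1 was at 5.52, 17.3 and 55.1 normalized cpm in the lowest, median and highest tumor, and 3, 0 and 1 reads were found in the glands, a ratio of 269 (105 to 986). Krt10 was at 24.4, 42.2 and 253 in the tumors and at 5.91, 6.97 and 20.0 in the glands. The log2 difference of Krt10 was 2.36 (limma SE 0.59). The lowest tumor for Krt10, tumor 6, was close to gland 3, the highest gland. Krt1 was the least abundant of the 10 genes per kilobase in all 10 tumors, at 0.0791 to 0.602 of the level of its partner Krt10.

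Krt79, the keratin of the upper follicle and sebaceous duct, had a log2 difference of 7.73 (limma SE 0.41). It was at 216, 413 and 1054 normalized cpm in the lowest, median and highest tumor and at 0.899, 1.03 and 0.975 in the glands. The glands held 21, 20 and 8 reads of it, so that the low gland level is itself well determined. The mean tumor level was 496 times that of the pooled glands (375 to 671, counting error only). Awat2, Elovl3 and Scd3, genes of sebaceous lipid synthesis, did not follow Krt79, with at most 4.44, 8.31 and 4.34 normalized cpm in any tumor and at most 8.90, 12.6 and 22.3 in a gland.

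Of 11795 genes that exceeded 5 normalized cpm in most of the libraries, 10.2% were called higher in the tumors and 6.99% lower (limma, adjusted p below 0.05 and a change over 2-fold). All 10 keratins passed the filter and were among the genes called higher. This count repeats how they were chosen, and 5 of them passed the filter through the tumors alone. Without gland 1, Krt14 and Krt10 were not called, which left 8 of the 10. The median fitted log2 difference of the 10 was 4.62, beside 0.014 for the genes past the filter. The difference was above 0 for each of the 10 in all 24 settings of the fit. The smallest was 1.03 for Krt14 when the libraries were scaled to 15 epithelial genes, a scaling that lowered the median gene by 0.67.

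In the tumors, the order per kilobase was Krt14, Krt17, Krt5, Krt79, Krt15, Krt6a, Krt16, Krt6b, Krt10 and Krt1, from a mean of 327 ± 215 (SD, n = 10) to 8.60 ± 6.69 normalized cpm per kilobase. Neighbours in the upper part of this order were not separated. Krt14 was above Krt17 in 6 of the 10 tumors, Krt17 above Krt5 in 7, and Krt15 above Krt6a in 5. A step that held in every tumor lay between Krt16 and Krt6b and between Krt10 and Krt1. In the glands the order was Krt14, Krt5, Krt15, Krt17, Krt10 and Krt79, followed by the 4 genes near 0, and Krt14 reached 85.0 ± 24.6 (SD, n = 3) normalized cpm per kilobase there.

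The make-up of the keratin pool was followed over 38 keratin genes of the table, each level divided by transcript length. The 10 genes made up 53.1% to 71.5% of the summed keratin level in tumors and 17.4% to 24.5% in glands. Krt5, Krt14 and Krt15 together took 21.6% to 39.7% of the pool in tumors and 16.1% to 21.2% in glands. Krt6a, Krt6b, Krt16 and Krt17 took 16.9% to 32.0% in tumors against 0.780% to 1.01% in glands, and Krt79 took 4.73% to 15.8% against 0.0466% to 0.109%. Krt1 and Krt10 were a small part of both, at 0.680% to 3.91% in tumors and 0.315% to 2.25% in glands, and there the groups overlapped. Simple keratins were the bulk of the gland pool, 75.2% to 82.4%, and 8.16% to 38.3% of the tumor pool. Tumor 7 had the lowest share of simple keratins and the largest share of the stress and follicle group.

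**Figure D2:**
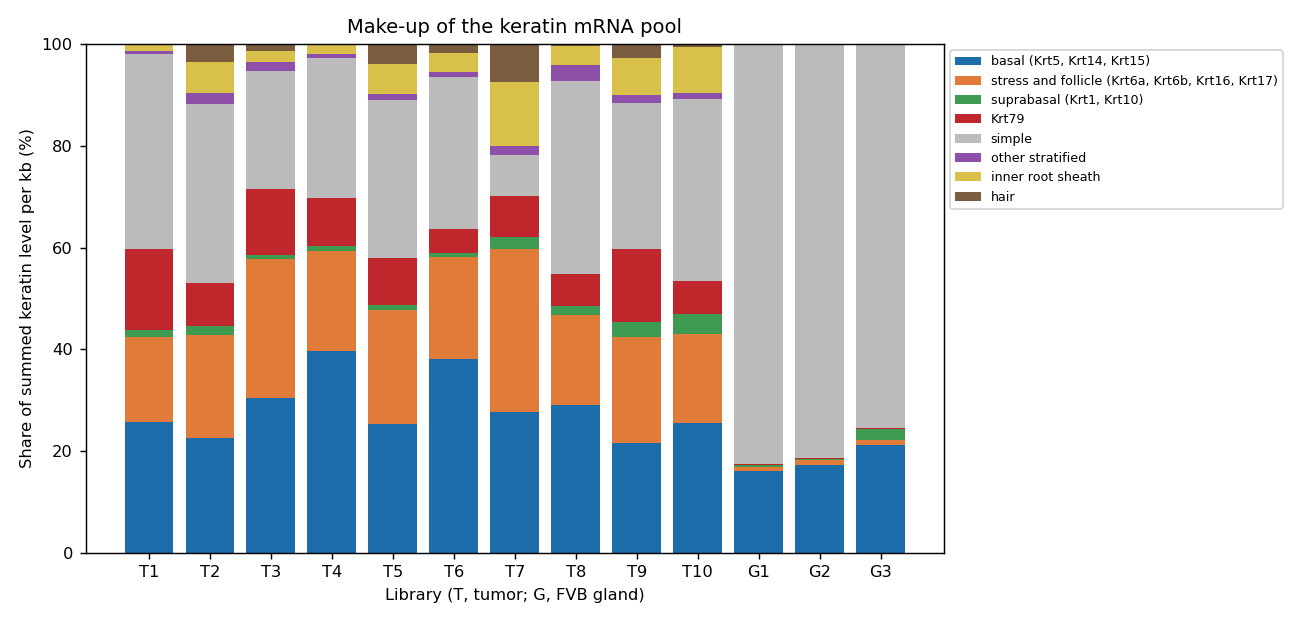
Share of each keratin group in the summed level per kilobase of 38 keratin genes, in percent, for tumors 1 to 10 (T1 to T10) and glands 1 to 3 (G1 to G3). Simple keratins (grey) fill 75.2% to 82.4% of the bars of the glands and at most 38.3% of those of the tumors, where basal (blue) and stress and follicle keratins (orange) are larger.

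These shares compare keratins with each other within a library, and the main simple keratins were not called different in level. Krt8 was at 147 to 446 normalized cpm in the tumors and at 119 to 415 in the glands, a log2 difference of 0.08 (SE 0.35, adjusted p = 0.888, limma), and Krt18 differed by 0.22 (SE 0.25, adjusted p = 0.556, limma). Krt19 differed by -0.48 (SE 0.31, adjusted p = 0.274, limma). Their groups overlapped, although these p-values do not show that the levels were equal. With the libraries scaled to the epithelial genes, 1 simple keratin was called lower. Of the 5 simple keratins that passed the filter, 2 were called higher, beside 10.2% of all genes tested, and the median log2 difference of the 5 was 0.22, beside 0.014. These were Krt7 and Krt23, which were higher in the tumors by 3.32 (SE 0.38, adjusted p = 1.76e-05, limma) and 3.33 (SE 0.40, adjusted p = 2.35e-05, limma). Krt7 was at 104 to 576 normalized cpm in tumors and 15.7 to 23.1 in glands.

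The balance of the chains was computed from the 5 type I and 5 type II genes of the set. Their summed type II level per kilobase was 0.579 to 1.02 of the type I level in the tumors, with a median of 0.751, and 0.427, 0.421 and 0.176 of it in the glands. No gland reached the range of the tumors. The ratio of Krt5 to Krt14 alone was 0.549 to 1.00 in tumors and 0.497, 0.508 and 0.218 in glands. Over all 38 keratins, 19 of each type, the ratio was 0.573 to 0.846 in the tumors and 0.233 to 0.355 in the glands. Without division by transcript length the tumor median for the 10 genes was 0.996, since the type II transcripts are longer.

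The 10 keratins varied more among the tumors than most genes. Their SD over the 10 tumors on the log2 scale was between 0.75 for Krt5 and 1.34 for Krt6b, with a median of 0.97, and the median SD of all genes past the filter was 0.37. Each of the 10 had a wider spread than at least 93.5% of these genes. The sum of the 10 genes was 1628 normalized cpm in tumor 1, the lowest, 1938 in the median, 4558 in tumor 3 and 8176 in tumor 7, the highest, beside 189 to 362 normalized cpm in the glands. As a share of all reads the sum was lowest in tumor 9, at 0.124%, and highest in tumor 7, at 0.885%.

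Tumor 7, the sole tumor of mouse 51360, was the highest for all 10 genes. Its level was 2.82 times the median of the other tumors for Krt79, 3.05 times for Krt5, 5.63 times for Krt6a, 7.01 times for Krt10 and 9.35 times for Krt6b. Tumor 3 was among the highest 3 for 6 of the 10 genes, and tumors 1 and 8 were each the lowest for 4 genes. Some markers of other cell types were also high in tumor 7. Adipocyte genes summed to 269 normalized cpm there and to 562 in tumor 4, against at most 91.2 in the others. The melanocyte genes Dct and Pmel summed to 4.30, the highest of the tumors, and the muscle genes to 11.6, the highest after tumors 4 and 10. Lymphocyte genes summed to 10.3 and were within the range of the other tumors.

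Tumors of the same mouse also differed from each other. In mouse 51067, tumor 3 was above tumor 2 by 3.02 times for Krt14, 3.55 times for Krt6a and 2.87 times for Krt79, but was at 0.815 and 0.627 of its level for Krt1 and Krt10. In mouse 51356, tumors 5 and 6 differed by 0.05 on the log2 scale for Krt6a and 0.02 for Krt6b, and by 1.19 for Krt5 and 1.34 for Krt15. The median absolute log2 difference of the 10 genes was 0.70 for the 5 pairs of tumors from a shared mouse and 0.90 for the other 40 pairs, and 9 of the 10 genes differed less within a mouse. Over all genes past the filter these medians were 0.40 and 0.37, and 39.6% of the genes differed less within a mouse. These pairs share tumors and were not tested.

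Whether keratins that pair in filaments moved together was examined over the 10 tumors alone, which leaves out the comparison with the glands. For 8 pairs named from known partnership or paralogy, Pearson's r of the log2 levels and Spearman's rho were computed with two-sided permutation tests (100000 resamples, Benjamini-Hochberg over the 8 pairs). Since tumors of a mouse are not independent, r was also computed over the means of the 6 mice with an exact permutation test, whose smallest possible p is 0.0014 for r and 0.0028 for rho. The genes and pairs were chosen with the levels and the spread of these tumors known, and a tumor that is high for all 10 genes adds to the spread and to r, so that these p-values are not independent evidence.

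The basal partners Krt5 and Krt14 followed each other closely, with r = 0.95 (permutation p = 0.00021, adjusted 0.00042) and rho = 0.92 (permutation p = 0.00058, adjusted 0.0023). Without tumors 6 and 7, the farthest from the median of Krt5, r was 0.91, and over the 6 mice it was 0.95 (exact permutation p = 0.0056, adjusted 0.0089), where rho was 0.89 and missed the threshold after adjustment (exact permutation p = 0.033, adjusted 0.053). Krt5 and Krt15 had r = 0.92 (permutation p = 0.00018, adjusted 0.00042) and rho = 0.89 (permutation p = 0.0012, adjusted 0.0023). Without tumors 6 and 7 this r was 0.84, and over the 6 mice it was 0.96 (exact permutation p = 0.0028, adjusted 0.0074). Over the 6 mice, Krt5 and Krt15 had a rank correlation of 0.94 (exact permutation p = 0.017, adjusted 0.033).

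Krt6a and Krt16, a known pair of the activated epidermis, had r = 0.95 (permutation p = 5e-05, adjusted 0.0002) and rho = 0.90 (permutation p = 0.00088, adjusted 0.0023), with r = 0.85 without tumors 3 and 7 and 0.99 over the 6 mice (exact permutation p = 0.0028, adjusted 0.0074). Krt6b and Krt16 had the closest relation, r = 0.98 (permutation p = 2e-05, adjusted 0.00016) and rho = 0.95 (permutation p = 0.00013, adjusted 0.001), with r = 0.92 without tumors 3 and 7 and 0.99 over the 6 mice (exact permutation p = 0.0014, adjusted 0.0074). For the near copies Krt6a and Krt6b, r was 0.96 (permutation p = 0.00029, adjusted 0.00046) and rho 0.84 (permutation p = 0.0037, adjusted 0.0059), with r = 0.77 without tumors 3 and 7 and 0.98 over the 6 mice (exact permutation p = 0.0042, adjusted 0.0083). For these 3 pairs rho over the 6 mice was 0.94, 1.00 and 0.94 (exact permutation p = 0.017, 0.0028 and 0.017, adjusted 0.033, 0.022 and 0.033). The part of the windows that Krt6a and Krt6b share in this r was not tested.

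**Figure D3:**
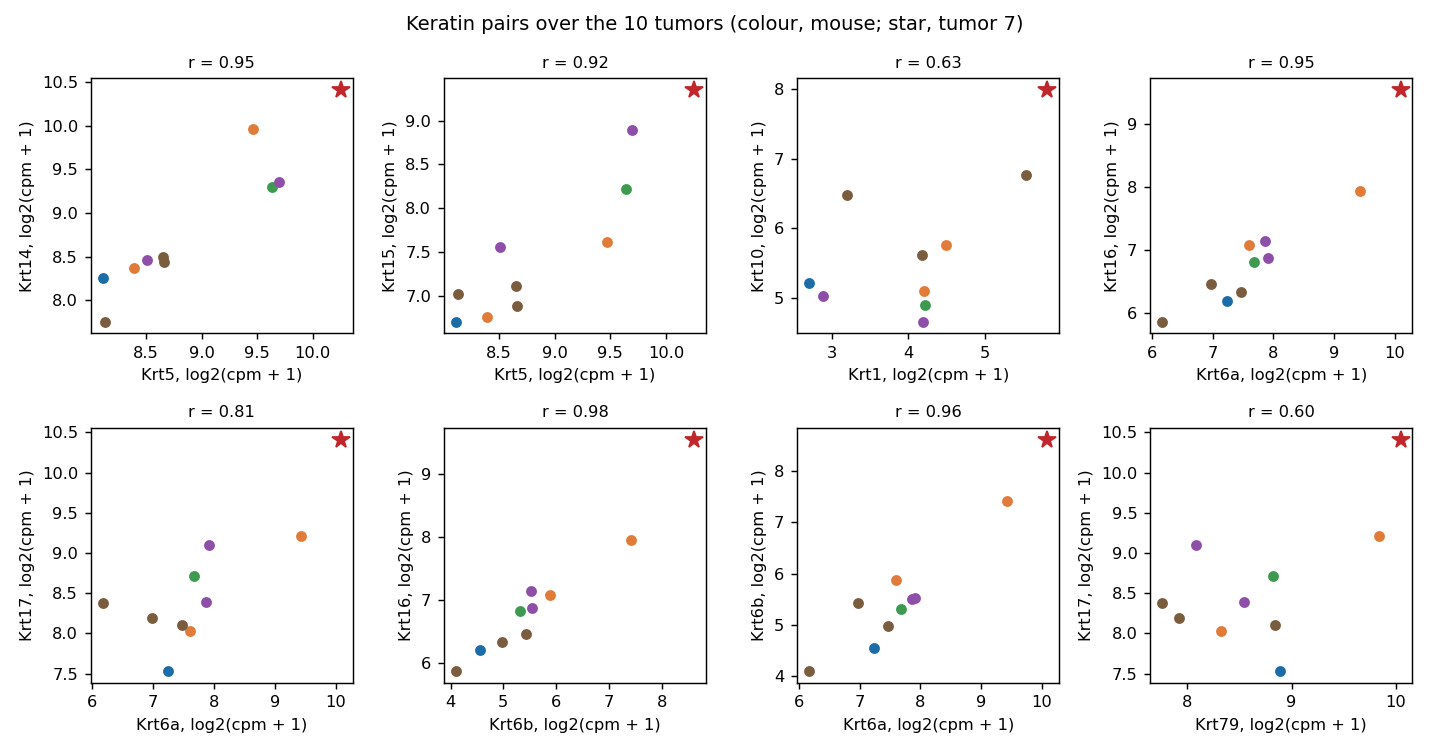
Levels of 8 keratin pairs in the 10 tumors on the log2(normalized cpm + 1) scale, with a point per tumor (colour, mouse; star, tumor 7) and Pearson's r above each panel. The pairs Krt5 with Krt14 and Krt6b with Krt16 form narrow bands (r = 0.95 and 0.98), whereas Krt1 with Krt10 and Krt79 with Krt17 scatter once tumor 7 is set aside.

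Other pairs rested on few tumors. Krt6a and Krt17 had r = 0.81 (permutation p = 0.0049, adjusted 0.0066) and rho = 0.78 (permutation p = 0.011, adjusted 0.014), but without tumors 3 and 7 r was 0.30, and without tumor 7 alone it was 0.60 (adjusted permutation p = 0.111). Krt1 and Krt10, partners in the suprabasal layer, had r = 0.63 (permutation p = 0.053, adjusted 0.061) and rho = 0.44 (permutation p = 0.20, adjusted 0.23), with r = 0.33 without tumors 1 and 7. Tumor 9 was high for Krt10, at 88.3 normalized cpm, and low for Krt1, at 8.19. Leaving out 1 tumor moved the r of Krt1 and Krt10, to 0.77 without tumor 9, 0.68 without tumor 6 and 0.36 without tumor 7. Krt79 and Krt17 had r = 0.60 (permutation p = 0.063, adjusted 0.063) and rho = 0.30 (permutation p = 0.41, adjusted 0.41), with r = -0.34 without tumors 3 and 7. This r was 0.73 without tumor 1, 0.71 without tumor 6 and 0.25 without tumor 7. Over the 6 mice, r was 0.91 for Krt6a with Krt17, 0.81 for Krt1 with Krt10 and 0.72 for Krt79 with Krt17 (exact permutation p = 0.029, 0.064 and 0.15, adjusted 0.039, 0.073 and 0.15). The matching rho was 0.77, 0.77 and 0.31 (exact permutation p = 0.10, 0.10 and 0.56, adjusted 0.12, 0.12 and 0.56).

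Over all 45 pairs of the 10 genes, a set of comparisons added after the data were seen, r ranged from 0.12 for Krt1 with Krt79 to 0.98, with a median of 0.67. These values are a description over 10 tumors of 6 mice, in which tumor 7 is the highest for every gene, and were not computed over mice. The basal keratins and Krt17 had pairwise r of 0.82 to 0.95, and Krt6a, Krt6b and Krt16 had r of 0.95 to 0.98 with each other. Krt10 stood apart. Its r was 0.16 with each of Krt5, Krt14 and Krt15, and its rho with them was -0.14, -0.22 and -0.28. Krt79 was closest to Krt6a, with r = 0.89 but rho = 0.61.

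**Figure D4:**
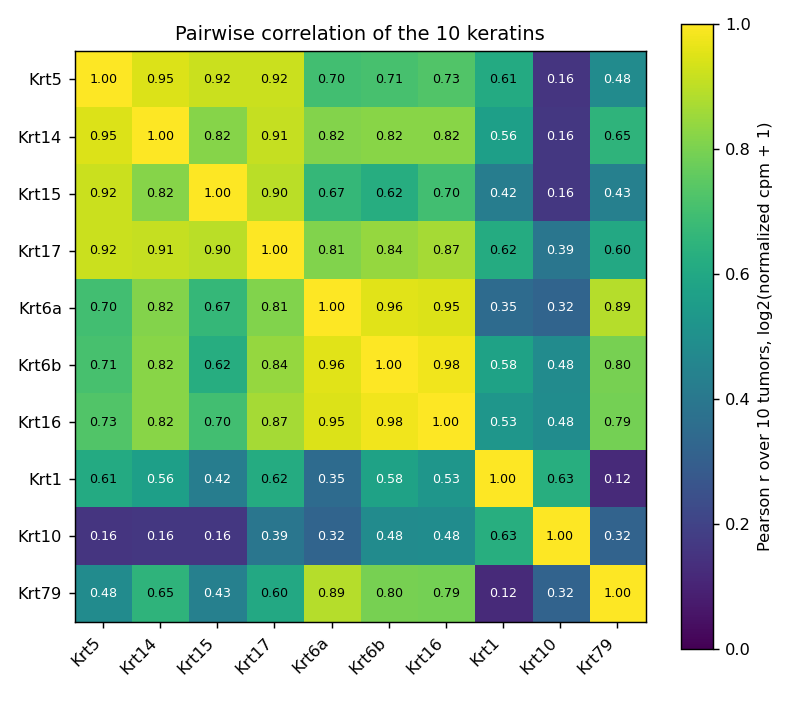
Pearson's r between the log2(normalized cpm + 1) levels of each pair of the 10 keratins over the 10 tumors, from 0 (dark) to 1 (yellow). A block of Krt5, Krt14, Krt15 and Krt17 (0.82 to 0.95) and a block of Krt6a, Krt6b and Krt16 (0.95 to 0.98) are set apart from Krt10, whose values with Krt5, Krt14 and Krt15 are 0.16.

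The genes with the most similar course over the 10 tumors were ranked by r for 3 patterns, and are listed as a description. For the mean of Krt5 and Krt14 they were Trp53inp2 (r = 0.99), Ston2 (0.98), Hyal2 (0.98), Osbpl5 (0.97) and Tmem19 (0.97). Several of these genes had a narrow range, for example 25.9 to 38.2 normalized cpm for Tmem19 in the tumors. For the mean of Krt6a, Krt6b, Krt16 and Krt17 they were Tgm5 (r = 0.98), Ide (0.97), Ly6g6c (0.97), Ier3 (0.97) and Kctd11 (0.97). Tgm5 encodes an epidermal transglutaminase and was at 4.59 to 25.9 normalized cpm in the tumors. For the mean of Krt1 and Krt10 they were Igfbp2 (r = 0.88), Vwa1 (0.88), Zfp750 (0.87), Krt71 (0.86) and Stc1 (0.85). Zfp750 encodes a transcription factor of epidermal differentiation and Krt71 a keratin of the inner root sheath. Without tumor 7, r for these 5 genes was 0.68 to 0.76.

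Contractile genes of the myoepithelium were lower in the tumors, where Krt5 and Krt14 were higher. Myoepithelial cells carry KRT5 and KRT14 together with smooth muscle proteins. Of 9 myoepithelial genes, 6 passed the filter and 5 of them were lower in the tumors, where 6.99% of all genes were. Without the filter 8 of 9 were lower, beside 10.1% of all 15213 genes, and the median log2 difference of the list was -3.03, beside 0.012 for all genes. Myh11, smooth muscle myosin, was at 1.80 to 10.9 normalized cpm in the tumors and at 352, 413 and 52.2 in the glands (log2 difference -5.05, SE 0.52, adjusted p = 6.34e-06, limma). Oxtr, the oxytocin receptor, fell by 4.52 (SE 0.38, adjusted p = 9.81e-07, limma). Acta2, smooth muscle actin, was at 9.60 to 57.1 in the tumors and at 762, 1038 and 317 in the glands (log2 difference -4.32, SE 0.49, adjusted p = 1.59e-05, limma). The ratio of Krt14 to Acta2 in normalized cpm was 5.78 to 31.8 in the tumors and 0.161 to 0.373 in the glands. Lmod1 was not called (log2 difference -0.41, adjusted p = 0.162, limma).

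**Figure D5:**
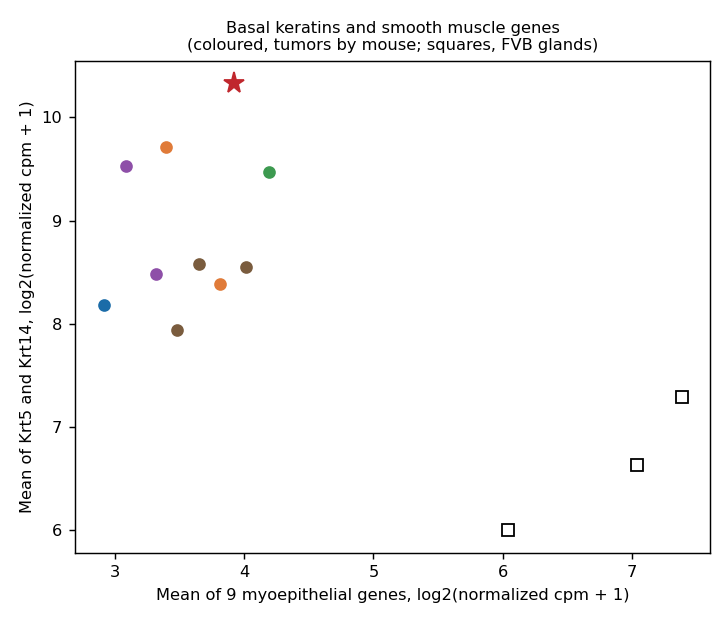
Mean level of Krt5 and Krt14 against the mean level of 9 myoepithelial genes, both on the log2(normalized cpm + 1) scale, for 10 tumors (coloured by mouse; star, tumor 7) and 3 FVB glands (open squares). The tumors lie at 7.94 to 10.3 for the keratins and 2.92 to 4.19 for the myoepithelial genes, the glands at no more than 7.29 and at 6.04 to 7.38.

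In gland 3, Krt5, Acta2 and Myh11 were each the lowest of the 3 glands, while its adipocyte genes summed to 12326 normalized cpm, the highest. Whether the glands' share of fat or milk RNA bears on the keratin differences was not tested.

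Transcription factors of stratified epithelium were mostly higher or not called. Of 20 on the list, 16 passed the filter and 9 of these were higher in the tumors, beside 10.2% of all genes tested, and the median log2 difference of the 19 measured factors was 1.23. Trp63, which encodes the basal regulator p63, was at 110 to 298 normalized cpm in the tumors and at 23.8, 28.6 and 23.2 in the glands, with no overlap (log2 difference 2.68, SE 0.24, adjusted p = 1.82e-06, limma). Klf4 differed by 2.48 (SE 0.37, adjusted p = 0.000175, limma). Grhl3, a regulator of epidermal barrier formation, was at 6.67 to 33.9 normalized cpm in the tumors and at 0.155 to 0.366 in the glands. It is the 1 factor of the 9 that passed the filter through the tumors alone, so that its call carries no weight. Without gland 3 the number of factors called higher was 5, and 1 was called lower. Under scaling to the epithelial genes 4 were called higher and 2 lower, where 601 of all genes were higher and 3134 lower.

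The proteins that anchor keratin filaments in desmosomes and hemidesmosomes were split. Of 10 measured genes, 5 were called higher, beside 10.2% of all genes tested, and the median log2 difference was 1.38, beside 0.014. Among the 5, Eppk1 was at 1.22 to 4.39 normalized cpm in the glands and passed the filter through the tumors alone. Desmoplakin (Dsp), which ties keratin filaments to desmosomes, was at 167 to 998 normalized cpm in the tumors and 6.46 to 24.6 in the glands (log2 difference 4.40, SE 0.48, adjusted p = 9.75e-06, limma). Plakophilin 1 (Pkp1) differed by 4.16 (SE 0.42, adjusted p = 4.94e-06, limma) and periplakin (Ppl) by 2.77 (SE 0.35, adjusted p = 3.71e-05, limma). Plakoglobin (Jup) and plectin (Plec) differed by 0.36 and 0.56 and were not called (adjusted p = 0.645 and 0.530, limma), and Dst differed by -1.10 (adjusted p = 0.0592, limma).

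Genes that bundle or cross-link keratins in cornified cells were followed with a list of 13, of which 12 were measured. Past the filter, 6 of 7 were called higher, beside 10.2% of all genes tested. Of these 6, 5 were at 5 normalized cpm or less in all glands. They passed the filter through the tumors alone, so that their calls carry no weight. Without the filter 10 of 12 were called higher, beside 10.5% of all genes. Rptn (repetin) was not seen in any gland and was at 69.3 to 837 normalized cpm in the tumors, at least 4181-fold higher against the limit of 3 reads over the 3 glands. Hrnr (hornerin) was at least 627-fold higher on the same basis, and at least 299-fold without tumor 7, with 3.54 to 211 normalized cpm in the tumors. Tchh (trichohyalin) was at 94.0 to 1912 in the tumors and at 6.72 to 13.1 in the glands, with tumors 7 and 9 highest (log2 difference 4.92, SE 0.76, adjusted p = 0.000209, limma). Loricrin (Lor), a main cornified envelope protein of the epidermis, stayed at 0.120 to 7.66 in the tumors and 0.122 to 0.300 in the glands and was not called without the filter (log2 difference 0.94, adjusted p = 0.136, limma). Tgm1, which encodes the main transglutaminase of cornification, was not called (log2 difference 0.66, adjusted p = 0.245, limma).

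Other keratin families were measured beside the 10. Past the filter, Krt75 and Krt80 of the stratified group, 6 of 6 inner root sheath keratins and 1 hair keratin, Krt35, were called higher. The share over all genes tested was 10.2%. These 9 genes were at 5 normalized cpm or less in all glands and passed the filter through the tumors alone, so that their calls carry no weight. Krt75, a keratin of the follicle's companion layer, was found in every tumor and in no gland, at least 1452-fold higher (lowest tumor 14.2 normalized cpm), and Krt73 of the inner root sheath at least 2103-fold, or 1123-fold without tumor 7, which had 643 normalized cpm. Without the filter, 4 of 4 stratified, 6 of 7 inner root sheath and 3 of 12 hair keratins were called higher, beside 10.5% of all 15213 genes. With genes at 0 in all glands set to their bound, the median log2 difference was 3.44, 4.14 and 2.02 for the 3 lists, beside 0.012 for all genes. Krt35 was not called without gland 1 or gland 2 (adjusted p = 0.0582 and 0.0523, limma). In tumor 7 the inner root sheath and hair keratins summed to 1536 and 801 normalized cpm. In tumors 1, 4, 8 and 10, the hair keratins summed to between 4.20 and 15.4, and the 10 basal and stratified keratins summed to 1628 to 2993 there.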

How the data were processed

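RNA of 10 tumors and 3 glands was sequenced as 75-base paired-end reads. The authors mapped them to mm10 with Rsubread and counted them per gene with featureCounts. The signal values deposited by the authors are counts scaled to each library's size with edgeR, called normalized cpm here. All of them (100%) were a whole number of reads (tolerance 0.1), and the reads were recovered. Genes at 5 normalized cpm or less in most libraries were left out (3418), and 11795 were tested with limma 3.58.1 (R 4.3.3, trend on mean expression, condition only) on log2(normalized cpm + 1), with Benjamini-Hochberg adjustment over all of them. Since the deposited values are normalized, limma was the main test, and edgeR 4.0.16 and DESeq2 1.42.0 were run on the recovered reads as alternatives. A log2 fold change understates changes of low genes. The fit was also run on simulated data, and the outcome is not given here.

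The 10 keratins, the gene lists and the pairs were chosen with earlier results of these data known. The text names all 10 keratins, up to 3 called genes of largest change per list and direction, the 5 genes nearest to each of 3 patterns, and some further list members (uncalled ones, and Eppk1 for its low gland level) chosen after their values were seen. Transcript lengths are those of the longest GENCODE vM21 basic transcript, coordinates and promoters those of RefSeq (GRCm38.p6), matched by Entrez ID for 15106 genes. Replicate numbers do not pair tumors with glands, which came from different mice.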

Additional observations from a re-analysis of the deposited data

How the results depend on the processing

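The direction of each of the 10 keratins was the same in all 24 settings, and 107 of 112 recomputed pair correlations kept their side of the threshold. The median log2 difference of the 10 was 4.62 and became 3.57 with a pseudocount of 5, 6.68 with edgeR and 6.79 with DESeq2 on recovered reads. Without the filter 1538 genes were called lower, and the lists gave 4 stratified, 3 hair, 10 bundling (all higher) and 8 myoepithelial genes (lower). Scaling to the epithelial genes gave 601 genes higher and 3134 lower, 4 transcription factors higher and 2 lower, and 1 simple keratin and 2 anchor genes lower. With edgeR and with DESeq2, 1 anchor gene was lower. Krt35, the hair keratin called, was lost (0 called) with a pseudocount of 5 and with tumors averaged by mouse, and 3 hair keratins were called without tumors 4 and 10, an alternative added after seeing the data. With 1 replicate left out, called hair keratins ranged from 0 to 3, called transcription factors ranged from 5 to 9 higher, with 5 and also 1 lower without gland 3, and 1 anchor gene was lower without tumor 7 or gland 3. The tumor median of the type II to type I ratio was 0.996 without length scaling. Leave-one-out r ranged from 0.60 to 0.89 for Krt6a with Krt17, 0.36 to 0.77 for Krt1 with Krt10 and 0.25 to 0.73 for Krt79 with Krt17.

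The replicate block, over the shared numbers 1 to 3, gave 362 genes higher, 182 lower, 7 of the 10 keratins called (without Krt5, Krt14 and Krt10), 3 inner root sheath, 0 hair keratins, 3 transcription factors and 2 anchor genes higher. A tumor and a gland of equal number came from different mice, so the numbers do not pair them. Their deviations from the means of their groups correlated at -0.58, 0.04 and -0.66. Causes were not tested. With 3 glands, Krt6a, Krt6b, Krt16 and Krt1 rest on 2 to 7 gland reads. The intervals of their ratios cover counting error of these reads only, and leave out the spread between glands and between tumors. The limma p-values count the 10 tumors of 6 mice as independent samples. With tumors averaged by mouse, 1117 genes were called higher and 800 lower, and 8 transcription factors were called higher.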

Other observations

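Trp63 did not order the tumors the way the keratins did. Its r over the 10 tumors was 0.45 with the mean of Krt5 and Krt14 and 0.48 with the mean of Krt6a, Krt6b, Krt16 and Krt17, and without tumor 7 it was -0.02 and -0.22. These values are a description without a test, and Trp63 was picked for them after the data were seen.

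The summed hair keratins split the tumors into a high and a low set. Tumor 7 was the highest and tumor 1 the lowest for this sum and for that of the 10 keratins. Tumor 4 was in the low set although its 10 keratins summed to 2993 normalized cpm. Tumor 9, at 1738 for the 10, was in the high set. Their sum was 70.8 to 801 normalized cpm in tumors 2, 3, 5, 6, 7 and 9 and 4.20 to 15.4 in tumors 1, 4, 8 and 10. Tumors 8, 9 and 10 came from a single mouse. Krt81, for example, was at 4.55 normalized cpm in tumor 9 and at 0.235 and 0.445 in tumors 8 and 10. Tchh, which was at 1454 in tumor 9, was at 241 and 309 in these tumors. Outside this mouse Tchh did not keep to the division, since tumors 3 and 6 of the high set were at 165 and 219.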
